A study of Mus musculus with 3 samples.

Results

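The enzymes that make and break down prostanoids were followed at the RNA level in mouse aortic endothelial cells under oxidative stress. The set was fixed by name: Pla2g4a, Ptgs1, Ptgs2, Ptges, Ptges2, Ptges3, Ptgis, Hpgd and Ptgr1. Of these 9 genes, 7 were listed among the 18287 genes of both deposited tables against control. Ptges, the inducible prostaglandin E synthase, and Hpgd, the dehydrogenase that starts prostaglandin inactivation, were not listed in either table and were not analysed here.

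The cells were a purchased primary culture from the mouse aorta, with 1 library in each of 3 groups. The control group was labelled as control cells. The glucose oxidase group was exposed for 30 min to 5 mU/mL of this enzyme, a source of hydrogen peroxide. The third group received the same glucose oxidase exposure and 0.2 mM ethyl-2-hydroxybenzylamine (Et2HOBA) for 24 h. Et2HOBA served as a scavenger of isolevuglandins, and the labels do not give the order of the exposures. No library with Et2HOBA alone was analysed here, and the labels give no passage, strain or sex of the donor animals.

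Prostanoid synthesis starts when cytosolic phospholipase A2 frees arachidonic acid from membranes. Cyclooxygenases turn this acid into prostaglandin H2, and terminal synthases turn that into prostaglandin E2, prostacyclin and the other prostanoids. In endothelium prostacyclin is known as a vasodilator that keeps platelets from aggregating. Prostaglandin H2 can also rearrange without an enzyme into levuglandins, and isolevuglandins are their relatives formed when free radicals oxidise arachidonic acid.

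The libraries held 35005089 to 40212212 reads over the listed genes. Read numbers for the oxidase library were back-calculated from the log2 differences in the authors' deposited table. Wherever 3 values stand in a row below, they are for control, for glucose oxidase alone and for both agents, in that order. Of 10 endothelial markers all were listed, at a summed 10183, 6295 and 5372 reads per 1000000 listed reads (RPM). They did not move together: with both agents the log2 ratio to control was -2.01 for Tek, -1.90 for Vwf, -1.73 for Cldn5 and -1.36 for Kdr, but 0.19 for Cdh5 and 0.55 for Emcn. The leukocyte markers Ptprc, Adgre1 and Itgam were not listed, and Csf1r had 6 to 12 reads. The 4 listed of 7 leukocyte and macrophage markers summed to 235, 494 and 700.5 RPM, nearly all from Cd68. Cd14 was higher as well, with 55, 136 and 272 reads, while Lyz2 was lower, with 186, 76 and 86. Of 6 fibroblast markers 2 were listed, Col1a1 at 23 to 30 reads and Pdgfra at 107, 1325 and 2821 reads. Of 5 mesothelial markers 3 were listed, summing to 30.4, 73.3 and 98.9 RPM, mostly Msln. Against this sum Lrrn4 was lower, with 58, 35 and 7 reads, and Krt19 had 55, 38 and 67. The smooth muscle list (6 of 7 listed) summed to 139.5, 103 and 102 RPM, mostly Smtn. Myh11 went the other way, with 19, 35 and 73 reads, and Acta2, Tagln, Lmod1 and Des had 18 reads or fewer. The platelet list (3 of 4) summed to 20.7, 14.4 and 14.2 RPM. Pf4 (290, 167 and 211 reads) and Gp9 (180, 34 and 34) were lower there, and Itga2b was not (274, 304 and 325). The epithelial list (1 of 4) summed to at most 0.149 RPM. The part of any of these marker changes in the results was not tested, and in bulk RNA fewer cells of a type and less RNA per cell cannot be told apart.

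With 1 library per group no difference has a replicate check, no test between conditions was possible, and no p-value is given. Ratios are of normalized counts, with exact Clopper-Pearson intervals at 95%. These intervals hold counting error alone, for a pair of libraries and not for the treatments. A gene is called past the limit when the log2 of normalized count plus 10 differs by 1 or more between libraries. This scale understates the change of low genes.

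The promoters of the members that stood farthest apart are shown first, since Ptgs2 and Pla2g4a are near neighbours on chromosome 1 and both were higher in the treated libraries, while Ptgs1 was not. RefSeq windows (build GRCm38.p6) run from 250 bases before to 50 bases after the annotated start, 5′ to 3′ on the strand of the gene. Windows were found for 6 of the 7 listed members. Capitals mark matches to the searched motifs.
Ptgs2, chr1:150099781-150100080, plus strand: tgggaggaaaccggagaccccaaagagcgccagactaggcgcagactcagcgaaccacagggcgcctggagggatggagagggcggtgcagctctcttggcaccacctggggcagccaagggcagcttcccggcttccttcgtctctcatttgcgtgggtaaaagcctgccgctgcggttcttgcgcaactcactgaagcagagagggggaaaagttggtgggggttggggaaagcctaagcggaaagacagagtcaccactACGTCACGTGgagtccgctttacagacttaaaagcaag
Pla2g4a, chr1:149961241-149961540, minus strand: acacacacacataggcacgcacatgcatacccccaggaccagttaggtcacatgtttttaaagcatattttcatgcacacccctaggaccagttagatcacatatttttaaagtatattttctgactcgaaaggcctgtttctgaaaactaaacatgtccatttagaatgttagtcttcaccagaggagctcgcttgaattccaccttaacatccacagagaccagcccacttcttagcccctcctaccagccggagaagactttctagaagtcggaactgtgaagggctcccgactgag
Ptgs1, chr2:36230176-36230475, plus strand: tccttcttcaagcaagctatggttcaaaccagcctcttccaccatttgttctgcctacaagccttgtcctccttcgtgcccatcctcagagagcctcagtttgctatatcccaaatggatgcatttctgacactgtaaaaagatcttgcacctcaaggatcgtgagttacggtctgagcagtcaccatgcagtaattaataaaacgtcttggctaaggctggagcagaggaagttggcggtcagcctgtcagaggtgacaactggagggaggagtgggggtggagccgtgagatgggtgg

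The motifs, searched on both strands, were the antioxidant response element core TGACNNNGC, the cyclic AMP response element TGACGTCA, the AP-1 site TGANTCA, the C/EBP-ATF element TGATGNAA, the E-box CACGTG and the TATA box TATAAA. The cyclic AMP half-site TGACGT was added after the sequences were seen. In the Ptgs2 window the half-site (minus strand, bases 13 to 18 after the start) overlapped an E-box (bases 17 to 22). Among all 32851 windows, 7.51% held the half-site and 7.15% the E-box. The shown Pla2g4a window and the Ptgs1 window held none of these motifs. The Ptges3 window held the antioxidant core on its minus strand (bases 8 to 16), as did 12.4% of all windows. The Ptges2 window held an E-box, and the Ptgr1 window held TGATGCAA, a match to the C/EBP-ATF element found in 3.97% of windows. A second Pla2g4a window, at a start inside the gene, held only a TATA box match, found in 13.6% of windows. Full cyclic AMP elements (1.79% of windows) and AP-1 sites (7.81%) were in none of the members' windows. A match is a description of letters and says nothing of binding.

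Of the 7 listed members 2 stood out as higher in the treated libraries, Pla2g4a and Ptgs2, the genes for the release of arachidonic acid and for the inducible cyclooxygenase. Both were higher than control past the limit after glucose oxidase, and no member was lower past it, against 12.7% of all listed genes past the limit in either direction (4.07% higher and 8.60% lower). With both agents these 2 were again higher and none lower, against 14.7% of all genes (6.66% higher and 8.04% lower). Between the treated libraries only Ptgs2 passed, and it was higher with Et2HOBA, against 8.55% of all genes (6.39% higher and 2.15% lower). All 7 members are protein-coding, and among the 13285 protein-coding genes alone the shares were 9.30% after glucose oxidase (4.53% higher and 4.76% lower), 16.6% with both agents (7.33% higher and 9.30% lower) and 3.32% between the treated libraries (0.971% higher and 2.35% lower). Processed pseudogenes, which count among all listed genes, were low in the glucose oxidase library. Of 2110, 841 were lower and 8 higher than control past the limit after glucose oxidase. With both agents 52 were lower and 78 higher than control. Between the treated libraries 959 were higher past the limit with Et2HOBA. The comparisons against control share the control library. The median log2 ratio of the 7 genes was 0.25, 0.24 and 0.29 in these 3 comparisons, and that of all listed genes was -0.01, 0.00 and 0.00.

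Pla2g4a, the cytosolic phospholipase A2 that releases arachidonic acid, was higher in both treated libraries. Control had 3335 reads, the oxidase library 6415 and the library with both agents 8861. The control library was the lowest, and the library with both agents was the highest. The normalized level was 2.06-fold that of control after glucose oxidase (95% interval 1.97 to 2.14) and 2.64-fold with both agents (2.54 to 2.75). Between the treated libraries it was 1.28-fold (1.24 to 1.33). The log2 ratio of glucose oxidase against control, 1.04, lay just past the limit, and missed it with total-count scaling (0.98). In the authors' deposited table it was 0.9997. Pla2g4a (ENSMUSG00000056220.14) lies on chromosome 1 from 149829618 to 149961290 on the minus strand.

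Ptgs2, the inducible cyclooxygenase known as COX-2, was the member with the largest ratio to control in each treated library. Its counts were 1356, 3324 and 10705 reads. Each library stood apart from the others by more than counting error. The level after glucose oxidase was 2.62-fold that of control (95% interval 2.46 to 2.79). With both agents it was 7.84-fold that of control (7.41 to 8.31), and 2.99-fold that of glucose oxidase alone (2.88 to 3.11). The step on the log2 scale was thus 1.38 from control to glucose oxidase and 1.58 from there to the library with Et2HOBA added. Among 13285 listed protein-coding genes Ptgs2 ranked 318 by log2 ratio after glucose oxidase, 84 with both agents and 30 between the treated libraries. In the authors' deposited table the log2 difference was 1.27 after glucose oxidase and 2.90 with both agents; these values are on scales that differ between the tables.

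Ptgs1, the cyclooxygenase known as COX-1 and usually expressed without a stimulus, was lower in both treated libraries, short of the limit. Control had 4708 reads, the oxidase library 3382 and the library with both agents 3696. Control was the highest library, and the treated libraries lay close together. The level was 0.768 of control after glucose oxidase (95% interval 0.735 to 0.803) and 0.780 with both agents (0.747 to 0.815). Between the treated libraries the ratio was 1.02 (0.969 to 1.06), an interval that includes equal levels. Ptgs1 (ENSMUSG00000047250.13, chromosome 2, 36230426 to 36252272) overlaps Gm43621 on the opposite strand, which had 5 to 6 reads in each library.

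The order of the 2 cyclooxygenase genes turned over between control and the library with both agents. In reads per kilobase of annotated exon per 1000000 reads (RPKM), Ptgs1 stood at 33.7 in control, 24.9 after glucose oxidase and 23.7 with both agents. On the same per-length scale Ptgs2 stood at 8.23, 20.7 and 58.1. The level of Ptgs2 was thus 0.244 of that of Ptgs1 in control (95% interval 0.230 to 0.260), 0.833 after glucose oxidase (0.794 to 0.875) and 2.46 times with both agents (2.37 to 2.55). With the longest annotated transcript as the length the ratios were 0.185, 0.633 and 1.86, in the same order. The sum of both genes was 41.9, 45.6 and 81.8 RPKM, highest with both agents.

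**Figure D1:**
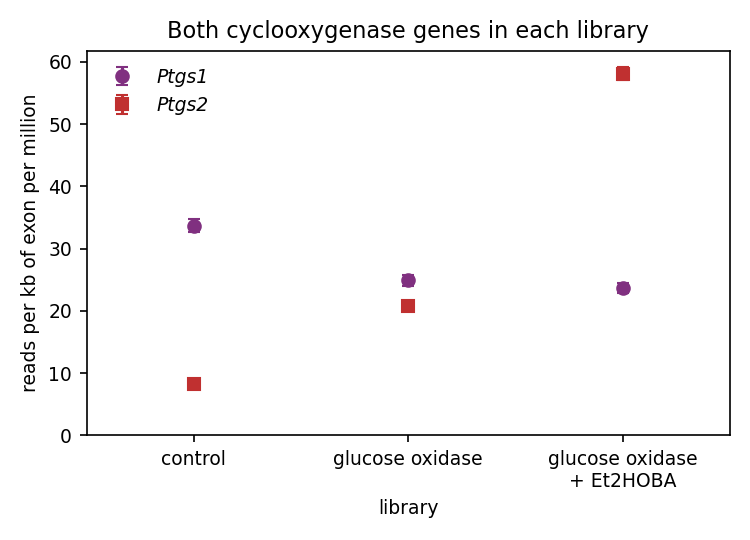
Levels of Ptgs1 (circles) and Ptgs2 (squares) in RPKM, in the single library of each group; bars are 95% Poisson intervals and are mostly smaller than the symbols. Ptgs1 is above Ptgs2 in control (33.7 against 8.23), and Ptgs2 is above Ptgs1 with both agents (58.1 against 23.7).

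Pla2g4a and Ptgs2 start 139 kb apart and are transcribed away from each other. In the stretch from 500 kb before Pla2g4a to 500 kb beyond Ptgs2, 6 other genes were listed. Of these only Hmcn1, which encodes the matrix protein hemicentin, passed the limit against control, and it was lower, with 76, 22 and 13 reads. The nuclear pore gene Tpr had 10490, 10524 and 12809 reads, and Odr4 had 2348, 2622 and 2778. Ptgs2os, a long noncoding RNA that starts next to Ptgs2 on the other strand, had 8, 15 and 12 reads, too few to place a difference. The window was chosen after the values were seen.

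**Figure D2:**
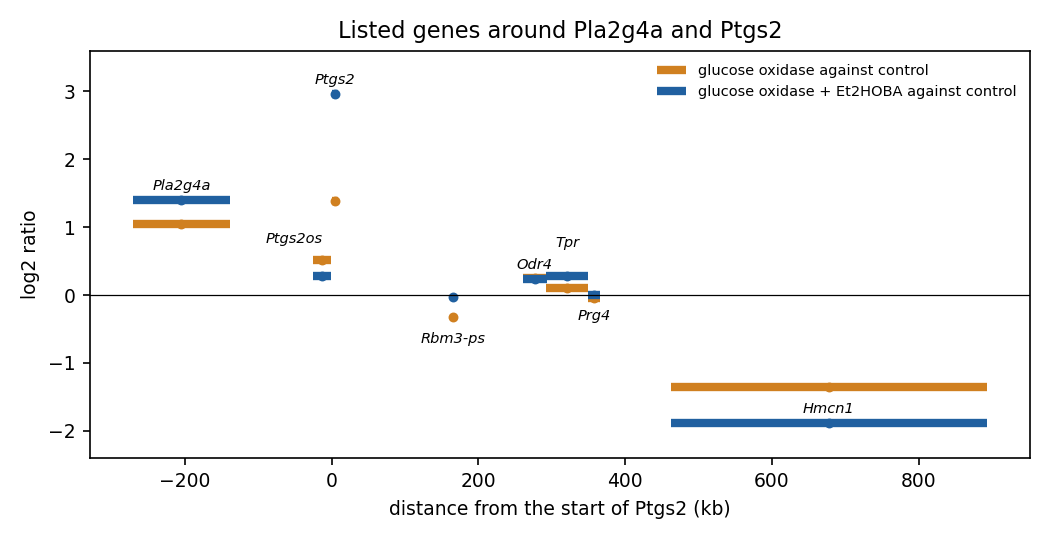
Log2 ratios against control (y axis) of the listed genes by distance from the start of Ptgs2 in kb (x axis), drawn as bars over each gene's span with a dot at its centre. Ptgs2 and Pla2g4a lie above 1 in both comparisons, Hmcn1 lies below -1, and the other 5 genes lie between.

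The prostaglandin E synthases that were listed did not pass the limit in any comparison. Ptges2, the membrane-associated synthase, had 1486, 1234 and 1548 reads. The glucose oxidase library was the lowest, at 0.888 of control (95% interval 0.823 to 0.958). With both agents the ratio to control was 1.04 (0.963 to 1.11), an interval that includes equal levels, and the sign of its log2 ratio, 0.05, turned to -0.10 with total-count scaling. Against glucose oxidase alone, Ptges2 in the library with both agents stood at 1.17 (1.08 to 1.26).

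Ptges3, known both as a cytosolic prostaglandin E synthase and as the HSP90 co-chaperone p23, was the most abundant member per length. Its levels were 68.4, 86.7 and 99.5 RPKM, from 5453, 6730 and 8870 reads. Control was the lowest library and the library with both agents the highest. The ratio to control was 1.32 after glucose oxidase (95% interval 1.27 to 1.37) and 1.62 with both agents (1.56 to 1.67). Against glucose oxidase alone, Ptges3 in the library with both agents stood at 1.23 (1.19 to 1.26). Of the 50-base stretches in its longest transcript, 22.2% are shared with another annotated gene, mainly the processed pseudogene Ptges3-ps, so the count depends on how shared reads were assigned. Ptges3-ps had 403, 438 and 663 reads, and adding them to Ptges3 left the log2 ratios at 0.39 and 0.69 against 0.40 and 0.69 without. A smaller copy, Gm11893, had 50, 10 and 75 reads. Processed pseudogenes as a class were low in the glucose oxidase library, with 841 of 2110 lower than control past the limit, and the part of this in the Ptges3 value was not tested.

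Ptgis, which makes prostacyclin, had almost no reads in these aortic endothelial cells. It had 9, 5 and 12 reads, or at most 0.116 RPKM. Its ratio to control after glucose oxidase was 0.594 with an interval from 0.156 to 1.97, so neither a fall nor a rise was detectable at this depth. Between the treated libraries the interval ran from 0.732 to 8.08. Ptgis overlaps 1110018N20Rik and Gm14291 on the opposite strand, and neither was listed.

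Ptgr1, which reduces the double bond of oxidised prostaglandins, oxidises leukotriene B4 and also clears reactive alkenals, had 473, 528 and 564 reads. Control was the lowest library. The ratio to control was 1.19 after glucose oxidase (95% interval 1.05 to 1.35) and 1.18 with both agents (1.05 to 1.34), and 0.993 between the treated libraries (0.880 to 1.12). These differences were short of the limit.

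**Figure D3:**
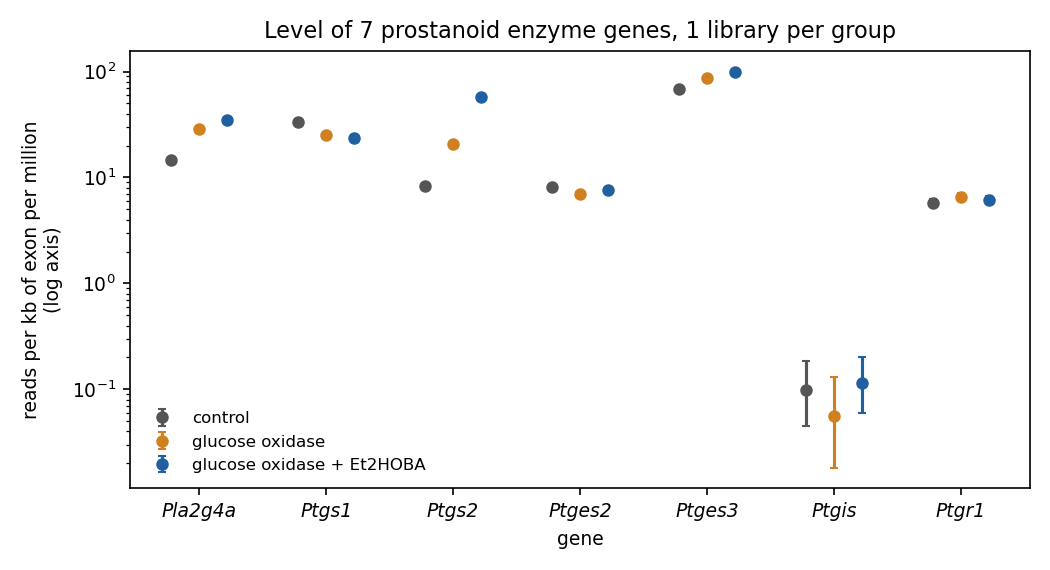
Level of each listed member in RPKM (log axis), with 1 point per library and 95% Poisson intervals. Of the genes Ptges3 is the highest in every library (68.4 in control), Ptgis lies near 0.1 in every library, and Ptgs2 has the widest spread of the other genes, from 8.23 to 58.1.

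**Figure D4:**
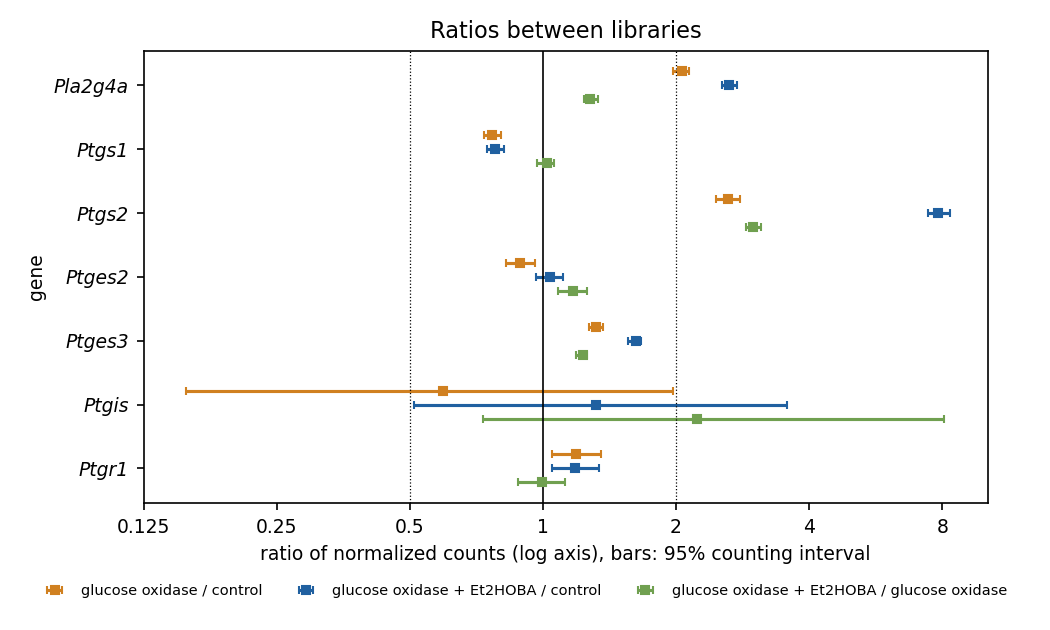
Ratio of normalized counts between libraries (x axis, log scale) for each member in the 3 comparisons, with exact 95% counting intervals; dotted lines mark ratios of 0.5 and 2. Ptgs2 lies at 2.62, 7.84 and 2.99, Ptgs1 stays between 0.768 and 1.02, and the intervals of Ptgis all cross 1.

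The order of levels per length in control was Ptges3 (68.4), Ptgs1 (33.7), Pla2g4a (14.5), Ptgs2 (8.23), Ptges2 (8.17), Ptgr1 (5.73) and Ptgis (0.0975), in RPKM. Ptgs2 and Ptges2 had overlapping Poisson intervals there (7.80 to 8.68 and 7.76 to 8.59) and could not be ordered. With both agents the order was Ptges3 (99.5), Ptgs2 (58.1), Pla2g4a (34.5), Ptgs1 (23.7), Ptges2 (7.61), Ptgr1 (6.11) and Ptgis (0.116). The place of Pla2g4a depended on the length used. With its longest transcript (3453 bases, against 6391 bases for all exons) its level with both agents was 63.8, above the 59.8 of Ptgs2 on the same basis.

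Other genes were sought whose pair of log2 ratios against control lay nearest to those of a member, among 10597 protein-coding genes with a mean normalized count of 100 or more. Likeness over 3 libraries is weak and is given as a description. Nearest to Ptgs2 were Cxcl2, a neutrophil chemokine with 589, 1485 and 4543 reads, at a distance of 0.0556 log2 units, then Inhba (52, 126 and 463 reads, distance 0.171) and Hbegf (297, 801 and 2708 reads, distance 0.207). Nearest to Pla2g4a were Hspb6, a small heat shock protein, with 427, 834 and 1126 reads, the potassium channel gene Kcnk2 with 194, 371 and 530, and the transferrin receptor Tfrc with 1801, 3376 and 4705, at distances of 0.0300, 0.0440 and 0.0473.

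The rest of the pathway was read from lists of 77 gene symbols, of which 47 were listed. Some symbols are an older and a newer name of 1 gene, such as Pla2g16 and Plaat3, so the lists hold fewer genes than symbols. After glucose oxidase 9 of the 47 passed the limit, 5 higher and 4 lower. With both agents 14 passed, 7 higher and 7 lower, and between the treated libraries 1 passed. These shares were 19.1%, 29.8% and 2.13%, beside 12.7%, 14.7% and 8.55% of all listed genes and 9.30%, 16.6% and 3.32% of protein-coding genes. The counts given below for each list are to be read beside the same shares of all genes. The medians of the lists together were -0.05, 0.04 and -0.02.

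Among genes that supply and recycle arachidonic acid, the secreted phospholipase gene Pla2g12a was higher past the limit in both treated libraries, as Pla2g4a was, with 451, 906 and 1207 reads. Of 12 other phospholipases A2 listed, 1 was higher and 1 lower past the limit after glucose oxidase, and 2 were higher and 1 lower with both agents. The other higher gene was Pnpla8, a calcium-independent phospholipase, with 2097, 3291 and 4839 reads, and the lower one was Plaat3, with 133, 49 and 37. Pla2g15, a lysosomal phospholipase, had 827, 922 and 1234 reads, short of the limit. Acsl4, which activates arachidonic acid for storage in phospholipids, had 5934, 8520 and 12724 reads and passed the limit with both agents (log2 ratio 1.09). Lpcat3, which puts arachidonic acid back into phospholipids, had 3699, 1964 and 1698 reads, and its log2 ratio with both agents was -1.13. No other gene of this list of 6 passed; Acsl3 had 1034, 1093 and 1571 reads and Mboat7 1460, 1649 and 1608.

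Of 6 other terminal synthases and related reductases, 2 passed the limit against control, and both were lower in each treated library. Ptgds, the lipocalin-type prostaglandin D synthase, had 243, 52 and 57 reads. Its level after glucose oxidase was 0.229 of control (95% interval 0.166 to 0.310), and the interval between the treated libraries included equal levels (1.02, 0.687 to 1.51). Cbr2, a carbonyl reductase, had 194, 36 and 23 reads and shares 15.1% of its stretches with another gene. Hpgds, the haematopoietic prostaglandin D synthase, had 103, 48 and 64 reads, and Cbr1, which reduces prostaglandin E2, had 1213, 1127 and 848. Tbxas1, the thromboxane synthase, had 6 to 10 reads in each library.

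Of the 3 transport genes, the exporter and the uptake carrier stood on opposite sides of control. Abcc4, an efflux pump that carries prostaglandin E2 among other organic anions, had 1552, 5552 and 8299 reads. Its level was 3.82-fold that of control after glucose oxidase (95% interval 3.61 to 4.05) and 5.31-fold with both agents (5.03 to 5.61). Slco2a1, the prostaglandin uptake transporter, had 694, 280 and 199 reads, or 0.431 (0.374 to 0.496) and 0.285 (0.242 to 0.334) of control. Slco3a1, an organic anion carrier, had 18398, 9568 and 9305 reads, with log2 ratios of -0.85 and -0.99, short of the limit.

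Among 5 listed prostanoid receptors, 1 passed the limit in each of 2 comparisons. Ptger4, the prostaglandin E2 receptor EP4, had 138, 96 and 242 reads, and was the only list gene past the limit between the treated libraries, at 2.34-fold (lower 95% bound 1.84). Ptgfr, the receptor for prostaglandin F2α, had 36, 80 and 72 reads, with a log2 ratio of 1.05 after glucose oxidase. Ptgir, the prostacyclin receptor, had 250, 380 and 299 reads and was highest after glucose oxidase alone, at 1.62-fold control (1.38 to 1.91). Ptger1 and Tbxa2r, the thromboxane receptor, had 52 reads or fewer in every library.

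Of 4 other reductases only Akr1c18 passed, an aldo-keto reductase best known for inactivating progesterone. It had 103, 488 and 608 reads, or 5.06-fold (95% interval 4.09 to 6.33) and 5.87-fold (4.75 to 7.30) the level of control. Akr1c14 had 298, 262 and 180 reads. Ptgr2 had 1284, 1208 and 1332 reads, and Zadh2, which reduces the same kind of oxidised prostaglandin, had 2496, 2919 and 3469.

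In the neighbouring leukotriene branch, which also uses arachidonic acid, no listed gene of 7 passed the limit after glucose oxidase, and 1 was higher and 2 lower with both agents. Ltc4s, the leukotriene C4 synthase, had 11236, 6854 and 4301 reads, or 0.380 of control with both agents (95% interval 0.367 to 0.394). Alox5ap, which presents arachidonic acid to the lipoxygenase Alox5, had 1460, 712 and 545 reads, and Alox5 itself was not listed. Aloxe3, a lipoxygenase of the skin barrier, was higher, with 31, 43 and 87 reads, and Lta4h, the leukotriene A4 hydrolase, had 4948, 3452 and 3231. The other listed genes of the leukotriene list had 19 reads or fewer in every library, where the scale used understates a change. Of 3 listed genes of the epoxygenase branch only Cyp4f13 passed, a cytochrome P450 of the family that hydroxylates fatty acids, with 588, 1238 and 1467 reads. The epoxide hydrolase gene Ephx1 had 25910, 22511 and 19068 reads, and Cyp2j6 had 1244, 1124 and 1105.

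**Figure D5:**
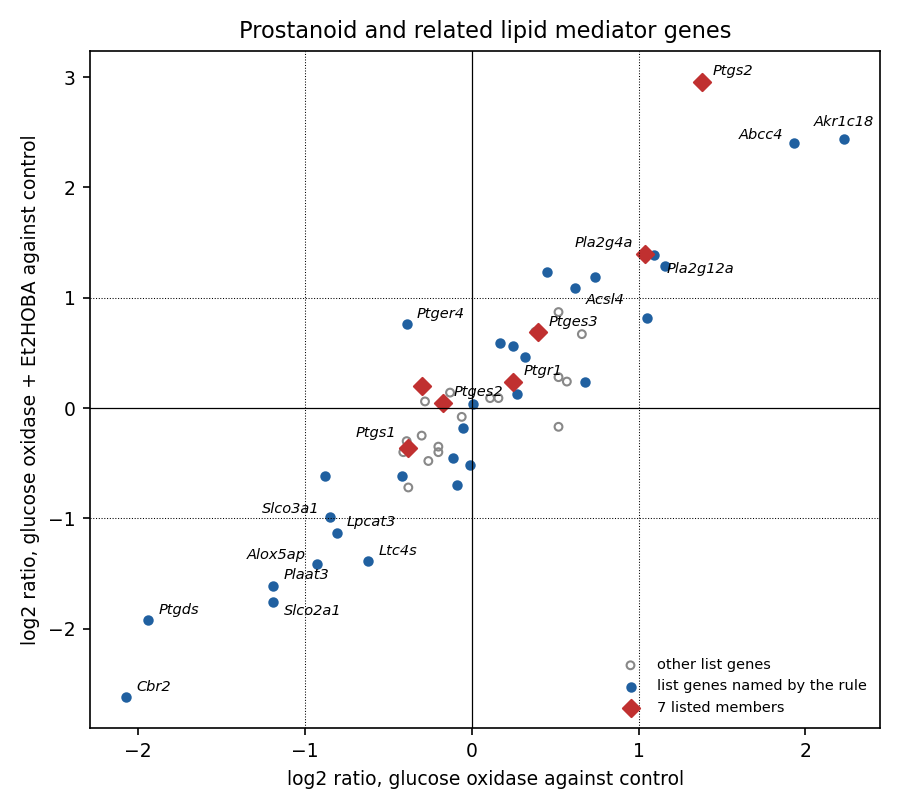
Log2 ratio of glucose oxidase (x axis) and of glucose oxidase plus Et2HOBA (y axis) against control for the 7 listed members (diamonds) and the 47 listed pathway genes (circles, filled where the naming rule picked them); dotted lines mark a log2 ratio of 1 in either direction, and both axes share the control library. Ptgs2 lies farthest above, at 2.96 on the y axis, Abcc4 and Akr1c18 lie at upper right, and Cbr2 and Ptgds lie at lower left.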

How the data were processed

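RNA was sequenced from polyadenylated RNA with a stranded kit, per the labels' protocols. STAR, featureCounts and mm10 are named in the submitters' processing notes, without versions or settings. The authors deposited raw read counts of control and of glucose oxidase plus Et2HOBA, with log-normalized values and their log2 difference, per the file headers. For glucose oxidase against control they deposited a symbol and a log2 difference. A further deposited table on the treated libraries listed 7 other genes and was not used.

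Read numbers of the oxidase library were back-calculated by inverting an arcsinh-of-square-root transform, using a constant for each library. All 18275 genes paired by symbol (100%) came out whole to 0.01 reads, against 3.31% after 1 read was added to each control count; a further 12 genes were placed by whole reads. The labels do not state this step. Tested on simulated data for glucose oxidase against control, it gave back 100% of counts over 18287 genes. These data were made with the same transform, so this checks the inversion alone and cannot show which transform the authors used.

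Size factors by the median-of-ratios method over all 3 libraries (1.03, 0.965 and 1.04) scaled the counts, and 10 was added before log2. Exon lengths and 50-base stretches came from GENCODE M21; 17878 gene IDs had the same version there, and all of these had the same position. Levels per length and RPM use the total reads of listed genes, and ratios between libraries use the size factors. A ratio can therefore differ from the quotient of its levels. For Ptges2 with both agents the ratio to control was 1.04, while its levels were 8.17 RPKM in control and 7.61 with both agents. For Ptgs1 the ratio between the treated libraries was 1.02, while its levels were 24.9 after glucose oxidase and 23.7 with both agents. Python 3.11.15, NumPy 2.4.6, SciPy 1.17.1 and pandas 2.3.3 were used.

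The members and lists were chosen with earlier results of these data known. Text names all listed members. From each list it takes up to 4 genes with the largest change against control and a mean normalized count of 50 or more, and for members past the limit the 3 nearest genes. Ptger1, Tbxa2r, Tbxas1, Ptgs2os, Alox5 and the chromosome 1 neighbours were named after their values were seen. Intervals cover counting error only. No count model was fitted, since 1 library per group gives no spread.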

Additional observations from a re-analysis of the deposited data

How the results depend on the processing

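No paired analysis was possible because each group has 1 library. No library could be left out for the same reason. Of 21 log2 ratios of members, none of the called ones changed sign. With total-count scaling, however, 10 of the 21 moved outside their 95% counting interval, by shifts within -0.15 to -0.03. The intervals therefore do not cover the choice of scaling. With total-count scaling, which shifts the median of all genes by -0.05, -0.13 and -0.08 in the 3 comparisons, 2 small ratios changed sign: Ptges2 with both agents against control (0.05 to -0.10) and Ptgs1 between the treated libraries (0.02 to -0.07).

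Members past the limit after glucose oxidase numbered 2, and 1 with total-count scaling, 1 on the scale of the deposited table (where Pla2g4a missed the limit narrowly) and 0 at a limit of 2. With both agents they numbered 2, 3 at a limit of 0.5 (with Ptges3 added) and 1 at a limit of 2. Between the treated libraries they numbered 1, but 2 with a pseudocount of 1 or a limit of 0.5 (the second being Ptgis, from 5 and 12 reads) and 0 at a limit of 2. All listed genes past the limit after glucose oxidase numbered 2317, against 4243 with a pseudocount of 1, 734 on the deposited scale, 6175 at a limit of 0.5, 526 at a limit of 2 and 1235 among protein-coding genes. With both agents they numbered 2688, against 4494, 1768, 7332 and 695 under the first 4 of these. Between the treated libraries they numbered 1563, against 3311 with a pseudocount of 1, 4670 and 391 at limits of 0.5 and 2, and 441 among protein-coding genes. Pathway list genes past the limit between the treated libraries numbered 1, and 3 with a pseudocount of 1. The ratio of Ptgs2 to Ptgs1 per length was 0.244, 0.833 and 2.46, and with the longest transcript 0.185, 0.633 and 1.86; the order of the genes was kept in each library. The deposited scale was not applied between the treated libraries, since that table lists 7 other genes. Depth limits Ptgis above all. The cause of these shifts was not tested.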
